A study of Mus musculus with 6 samples.

Results

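Transcripts of 8 genes whose proteins tie the plasma membrane to actin filaments were followed in mouse mesenchymal stem cells in which the formin Dia2 had been lowered. The genes were Marcks and Marcksl1 (the MARCKS proteins), Ezr, Rdx and Msn (ezrin, radixin and moesin, the ERM proteins), Nf2 (merlin, their relative), and Add1 and Add3 (adducins). They were taken by gene symbol, 8 of 23358 rows of the deposited table. The group was chosen on 1 measured value, the low count of Marcksl1 with Dia2 siRNA, which was known to be among the largest falls of the study. The values of Marcksl1 in the comparison are therefore a description without a test. The other 7 entered as members of the same protein families, and all were chosen with earlier results of these data known.

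The study compared 2 groups of 3 libraries each. The first received an siRNA against Dia2, the product of Diaph3 (listed as Diap3), and the second a non-targeting control siRNA. All cells were C57BL/6 marrow-derived mesenchymal stem cells at passage 6 to 12, transfected overnight with siRNA at 50 nM, and RNA was taken 24 h after the medium had been replaced. A single siRNA sequence was used, so effects of Dia2 loss and of that sequence cannot be told apart, and the sequence of the control siRNA and the age of the mice are not used here. No label says that the replicates came from separate cultures, and every p-value therefore reflects library-to-library spread that may be technical.

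MARCKS proteins are anchored in the inner face of the membrane, bind the phospholipid PIP2, calmodulin and actin, and leave the membrane when protein kinase C phosphorylates them. ERM proteins bind membrane proteins and PIP2 through an N-terminal FERM domain and actin through the C-terminal tail. They are opened by PIP2 and by kinases such as LOK, SLK and ROCK. Merlin has a FERM domain without the C-terminal actin site of the ERM proteins and acts upstream of the Hippo pathway, and adducins cap the fast-growing ends of filaments and recruit spectrin to them. Formins such as Dia2 lengthen unbranched filaments of the kind these proteins attach to.

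The libraries held 70538768 to 110006338 counts in all. Every count was even, as if each fragment added 2. The ribosomal precursor Rn45s took 6.0% to 11.7% of the counts, highest in Dia2 siRNA replicate 1 (10.9%) and control siRNA replicate 3 (11.7%). The targeted gene stood at 7.52, 8.37 and 7.39 CPM in Dia2 siRNA libraries, against 84.7, 80.1 and 84.8 CPM in control siRNA libraries (CPM, counts scaled to library size with TMM factors), 10.7-fold lower (edgeR adjusted p = 1.66e-11). Of 9 mesenchymal stem cell markers, 8 passed the filter on low counts and all 8 rose (adjusted p under 0.05, as in 29.3% of all tested genes), whereas Thy1 had 0 to 10 counts per library. The list summed to 2490 to 2600 CPM in Dia2 siRNA libraries and 1820 to 1930 CPM in control siRNA libraries, and its part in the results was not tested. Endothelial markers summed to 0.812 to 0.958 CPM with Dia2 siRNA and 1.34 to 1.51 CPM with control siRNA. Of 3 tested, 1 (Kdr) fell, as did 29.9% of all tested genes. Markers of epithelium, where ezrin is abundant, summed to 0.213 to 0.395 CPM in Dia2 siRNA libraries and 0.125 to 0.203 CPM in control siRNA libraries, with Epcam at 0 counts throughout.

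The sequences that bear on the comparison come first. The siRNA sequence given by the submitters has 25 bases and reads as the Diaph3 messenger does, without a mismatch, in 2 transcripts of GENCODE M21 (GRCm38), the first 17 at chr14:86910029-86910045 and the last 8 at chr14:86906031-86906038, minus strand. Capitals mark the 7 bases that pair with the seed (bases 2 to 8) of the opposite, guiding strand.
Diaph3, siRNA target: cagagtccatgattcagAACTTAAt
No member held a long stretch of it. The longest run shared with the target strand was 6 bases in Marcksl1, 7 in Marcks and Ezr and 8 in Rdx and Add3. It was 9 in Msn and Nf2 and 10 in Add1, against a median of 8 over the tested genes. A run of at least 10 was found in 7.2% of the tested genes. Runs shared with the other strand were 7 to 9 bases in the members, longest in Rdx, also against a median of 8. The capitalised heptamer, AACTTAA, stood in the 3′ untranslated regions of 13.9% of 13005 tested genes with one annotated, and in those of Rdx, Msn and Add3 among the members. None of these 3 was lower in the comparison. The remaining heptamers, 3 in number, had come out of an earlier scan of the same fold changes, so their presence supports nothing here and is given as sequence. ATGTGAA, in 18.3% of the genes, stood in Marcksl1 and Marcks, GCAGTAC, in 6.2%, stood in Rdx and Nf2, and TATGTGA, in 13.6%, stood in no member (it shares 6 letters with ATGTGAA). The sites are shown with the heptamer in capitals.
Marcksl1, chr4:129515798-129515826, plus strand: ggaggtctgtaATGTGAAacaacttcttg
Marcks, chr10:37134818-37134846, minus strand: caaaaaaataaATGTGAAtaaaatgtaca
Rdx, chr9:52087964-52087992, plus strand: ttatgcactcaAACTTAAcatttatctat
Rdx, chr9:52087699-52087727, plus strand: acgttgcctttGCAGTACatgaaacatcc
Nf2, chr11:4766246-4766274, minus strand: ccctgattgagGCAGTACctgagccgcca
Msn, chrX:96166766-96166794, plus strand: ccatgggaccaAACTTAAtctccccactc
Add3, chr19:53246437-53246465, plus strand: tgatttttgcaAACTTAAtcttgattttt
Add3, chr19:53246458-53246486, plus strand: tgatttttataAACTTAAattttctttta
The median log2 fold change was 0.05 over genes holding AACTTAA and -0.01 over those without it. For the words of the scan, whose choice used these fold changes, it was -0.09 over genes holding ATGTGAA and 0.02 over those without it, -0.06 against 0.01 for TATGTGA, and 0.21 against -0.01 for GCAGTAC. Whether these words act on any member was not tested.

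Of the MARCKS pair, Marcksl1 was far lower with Dia2 siRNA and Marcks did not pass the test. Marcksl1, a small MARCKS relative, lies at chromosome 4, 129513581 to 129515981 (GRCm38, as all positions here; plus strand, 2 exons). It had 316, 392 and 358 counts in Dia2 siRNA libraries, against 2700, 1734 and 1268 counts in control siRNA libraries. Scaled to depth these were 4.2, 4.08 and 3.83 CPM with Dia2 siRNA, against 24, 21.1 and 18.4 CPM with control siRNA. All 3 Dia2 siRNA libraries lay far below the lowest control library and close to each other. The means were 4.04 ± 0.191 CPM with Dia2 siRNA and 21.2 ± 2.82 CPM with control siRNA (SD, n = 3 each), 5.27-fold lower with Dia2 siRNA (log2 fold change -2.40 ± 0.10, SE). The absolute change exceeded that of 99.1% of 14151 tested genes, a place that follows from the choice of Marcksl1 for its fall. If each fragment added 2, the lowest library held 158 fragments, with an exact 95% Poisson interval of 134 to 185 that covers counting error only. A pseudogene, Marcksl1-ps4, is annotated, and how reads of the gene and its copy were divided is not stated.

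Markers of blood cells and macrophages, in which Marcksl1 is also expressed, were lower in part. Of 4 tested, 3 (Cd53, Itgb2 and Cd68) fell, as did 29.9% of all tested genes, and Csf1r did not pass. The list of 6 summed to 4.85 to 7.03 CPM in Dia2 siRNA libraries and 10.6 to 11.5 CPM in control siRNA libraries. The defining markers Ptprc and Itgam were too scarce to test and were not lower with Dia2 siRNA. Ptprc had 2, 0 and 8 counts with Dia2 siRNA and 2, 0 and 0 with control siRNA. Itgam had 10, 6 and 6 counts with Dia2 siRNA and 0, 2 and 0 with control siRNA. The part of such cells in the Marcksl1 value was not tested. In bulk RNA, fewer cells of a type and less RNA per cell cannot be told apart.

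Marcks, the founding member of the family and a gene of 2 exons on chromosome 10 (37133243 to 37138926, minus strand), did not follow Marcksl1. It stood at 306, 291 and 270 CPM in Dia2 siRNA libraries, against 170, 312 and 233 CPM in control siRNA libraries. The groups overlapped, as control replicate 2 lay above all other libraries and control replicate 1 below them. The log2 fold change was 0.28 ± 0.23 (SE; edgeR adjusted p = 0.349), with a 95% interval of -0.17 to 0.72. The control spread, a coefficient of variation of 29.8%, was exceeded by 0.246% of 2034 genes with a mean of at least 100 CPM. Without control replicate 2 the change was 0.52 (adjusted p = 0.00212), and without control replicate 1 it was 0.08 (adjusted p = 0.571). Marcksl1 made up 3.46%, 3.54% and 3.57% of the RPKM of the pair in Dia2 siRNA libraries, against 27.0%, 15% and 17.1% in control siRNA libraries. RPKM is the deposited count scaled to gene length and library total, so that genes of different length can be set side by side. The summed RPKM of the pair overlapped between groups, at 57.6 to 60.5 with Dia2 siRNA and 48.5 to 76.9 with control siRNA.

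**Figure D1:**
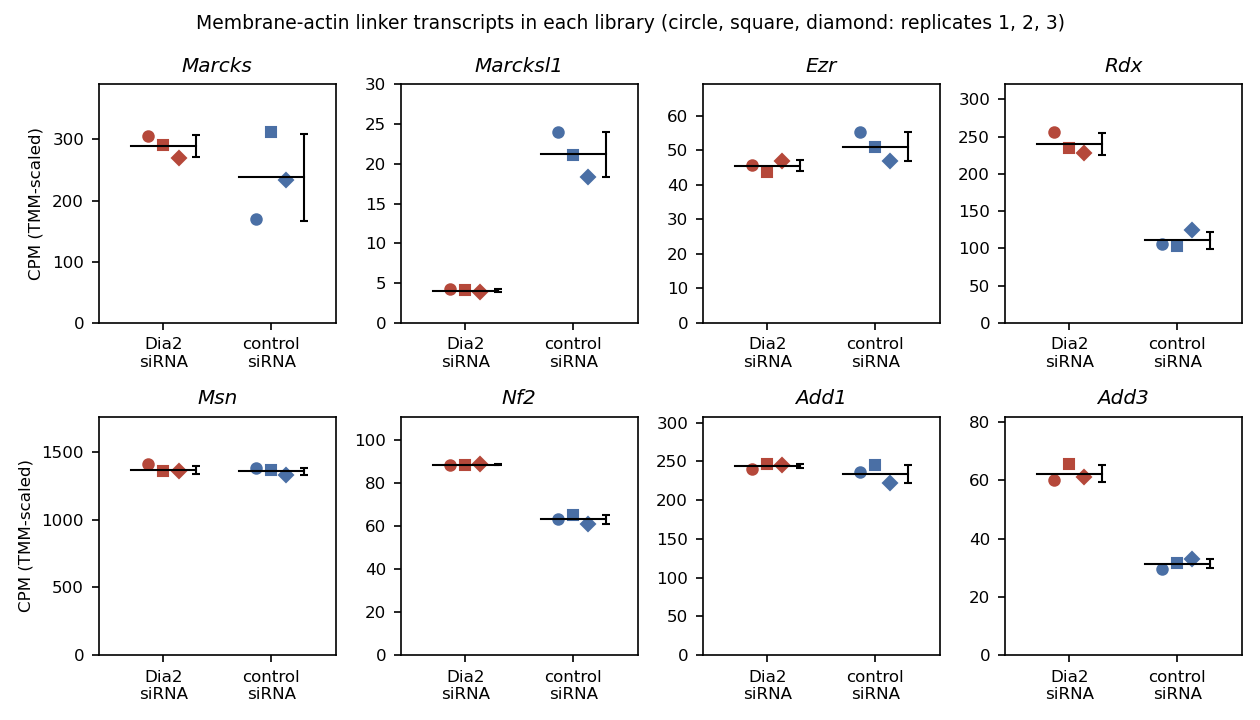
CPM of the 8 linker transcripts in each library (vertical axis, TMM-scaled CPM, from 0, with its own scale per gene), Dia2 siRNA in red and control siRNA in blue; lines are means and bars are SD over 3 libraries. Marcksl1 lies lower and Rdx, Nf2 and Add3 lie higher in all 3 Dia2 siRNA libraries, whereas the control values of Marcks spread from 170 to 312 CPM.

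Radixin had the largest fold change of the 3 ERM genes. Rdx (chromosome 9, 52047150 to 52088738, plus strand) stood at 256, 235 and 228 CPM in Dia2 siRNA libraries, against 106, 103 and 124 CPM in control siRNA libraries. The lowest Dia2 siRNA library lay above the highest control library by more than the spread within either group. Rdx rose 2.16-fold (log2 fold change 1.11 ± 0.07, SE; edgeR adjusted p = 8.47e-08), a larger absolute change than in 92.8% of the tested genes.

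Moesin, the most abundant ERM transcript, did not pass the test. Msn (chromosome X, 96096045 to 96168553, plus strand) had 1410, 1360 and 1360 CPM in Dia2 siRNA libraries, against 1380, 1370 and 1330 CPM in control siRNA libraries. Its log2 fold change was 0.01 ± 0.04 (SE; edgeR adjusted p = 0.819) with a 95% interval of -0.07 to 0.09. Ezrin was slightly lower. Ezr (chromosome 17, 6738131 to 6782780, minus strand) had 45.9, 43.8 and 47 CPM in Dia2 siRNA libraries, against 55.3, 51.1 and 46.9 CPM in control siRNA libraries. The ranges overlapped at control replicate 3. Ezr fell by 0.17 ± 0.06 on the log2 scale (SE; edgeR adjusted p = 0.0397), but this call was lost in 9 of 16 alternatives, among them each fit without 1 library other than control replicate 3, with adjusted p from 0.000801 to 0.18 over the 16.

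Ezr shares 4 exonic bases with Sytl3 on the other strand, and Msn 136 with a small RNA gene on the other strand.

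The shares of the 3 ERM genes in their family did not overlap between groups, whereas the sum did. Shares add up to a fixed total, so a larger share of Rdx lowers the others, and they are not separate results. The CPM of Msn and of Ezr overlapped between groups. By their own CPM, 64.6% of all tested genes did not overlap. Shares were not tested (3 libraries against 3 cannot give an exact two-sided permutation p below 0.1). Radixin supplied 12.1%, 11.7% and 11.3% of the ERM RPKM in Dia2 siRNA libraries, against 5.47%, 5.36% and 6.58% in control siRNA libraries. Moesin supplied 84.8 ± 0.31% with Dia2 siRNA and 90.0 ± 0.469% with control siRNA, and ezrin 3.52 ± 0.142% with Dia2 siRNA and 4.22 ± 0.29% with control siRNA (SD, n = 3 each). The summed ERM RPKM was 344 to 358 in Dia2 siRNA libraries and 315 to 348 in control siRNA libraries.

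Merlin and the adducin Add3 were both higher. Nf2 (chromosome 11, 4765845 to 4849544, minus strand) stood at 88.7, 88.7 and 88.8 CPM in Dia2 siRNA libraries, against 63.2, 65.3 and 61.1 CPM in control siRNA libraries. On this scale the Dia2 siRNA values were almost identical, and they lay above every control value. In deposited RPKM they were 13.3, 14.1 and 14.4, against 10.4, 10.8 and 9.35 with control siRNA. Nf2 rose 1.4-fold (log2 fold change 0.49 ± 0.04, SE; edgeR adjusted p = 1.74e-06). Add3, the gamma-adducin gene (chromosome 19, 53140445 to 53247399, plus strand), had 60, 65.5 and 61.3 CPM in Dia2 siRNA libraries, against 29.7, 31.5 and 32.9 CPM in control siRNA libraries. It rose 1.98-fold (0.99 ± 0.06, SE; edgeR adjusted p = 5.06e-08), with no overlap between groups.

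The more abundant alpha-adducin gene did not pass the test. Add1 (chromosome 5, 34573714 to 34632305, plus strand) had 240, 246 and 245 CPM in Dia2 siRNA libraries, against 236, 245 and 222 CPM in control siRNA libraries (0.06 ± 0.05, SE; edgeR adjusted p = 0.338; 95% interval -0.04 to 0.15). Add2, the beta-adducin gene known from red cells and neurons, was scarce at 1.88 ± 0.242 CPM with Dia2 siRNA and 3.27 ± 0.277 CPM with control siRNA (SD, n = 3 each) and fell (log2 fold change -0.81 ± 0.14, SE; edgeR adjusted p = 0.000268). Add1 shares 63 exonic bases with the miRNA gene Mir7036b on the same strand. Add3 held 16.8%, 17.8% and 16.9% of the adducin RPKM in Dia2 siRNA libraries, against 9.21%, 9.37% and 10.7% in control siRNA libraries. Add1 held 82.0 ± 0.577% with Dia2 siRNA and 88.6 ± 0.716% with control siRNA, and Add2 0.82 ± 0.104% with Dia2 siRNA and 1.61 ± 0.0772% with control siRNA (SD, n = 3 each). These shares also add up to a fixed total, so the lower share of Add1 does not show a fall of Add1 itself.

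**Figure D2:**
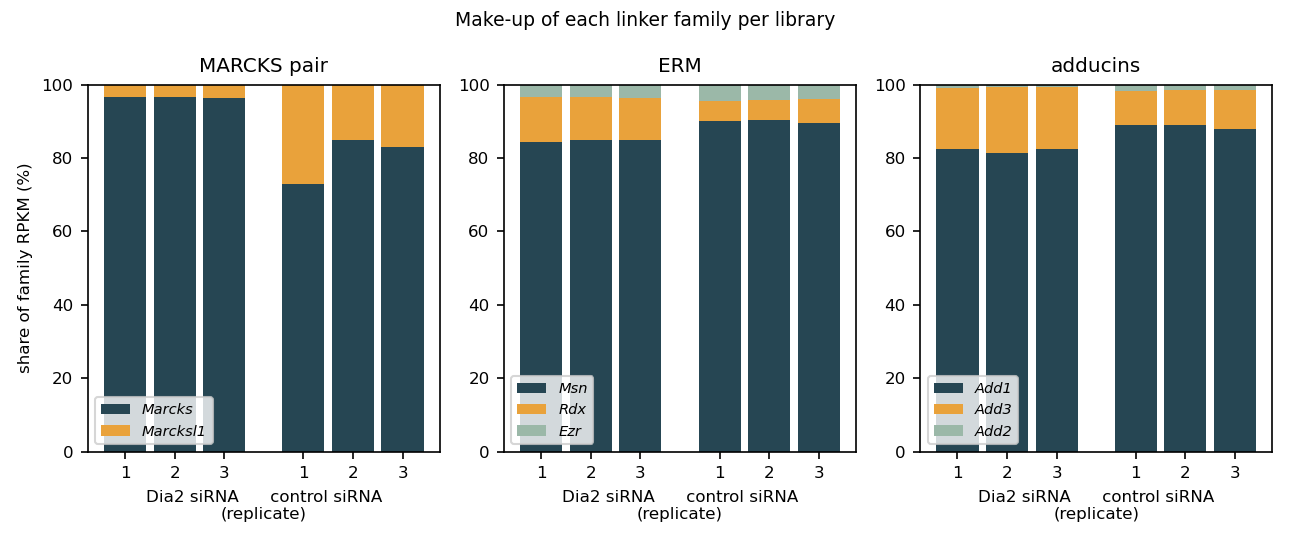
Share of each gene in the summed RPKM of its family (vertical axis, percent) in every library, Dia2 siRNA on the left and control siRNA on the right of each panel. Marcksl1 is a thin layer near 3.52% with Dia2 siRNA and 19.7% with control siRNA on average, while Rdx and Add3 take larger shares with Dia2 siRNA, at 11.7% against 5.8% with control siRNA and 17.2% against 9.75% with control siRNA.

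Across the 8 genes, 3 were called higher (Rdx, Nf2 and Add3) and 2 lower (Ezr and, by description, Marcksl1), where an adjusted p under 0.05 called 59.2% of all tested genes, 29.3% higher and 29.9% lower. The groups did not overlap for 4 of the 8, Marcksl1, Rdx, Nf2 and Add3, against 64.6% of all tested genes. All 8 passed the filter on low counts. Their median log2 fold change was 0.17, against 0.01 over all tested genes, and their median absolute change 0.38, against 0.304. Since the comparison was known when the group was put together, nothing is read from these counts.

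**Figure D3:**
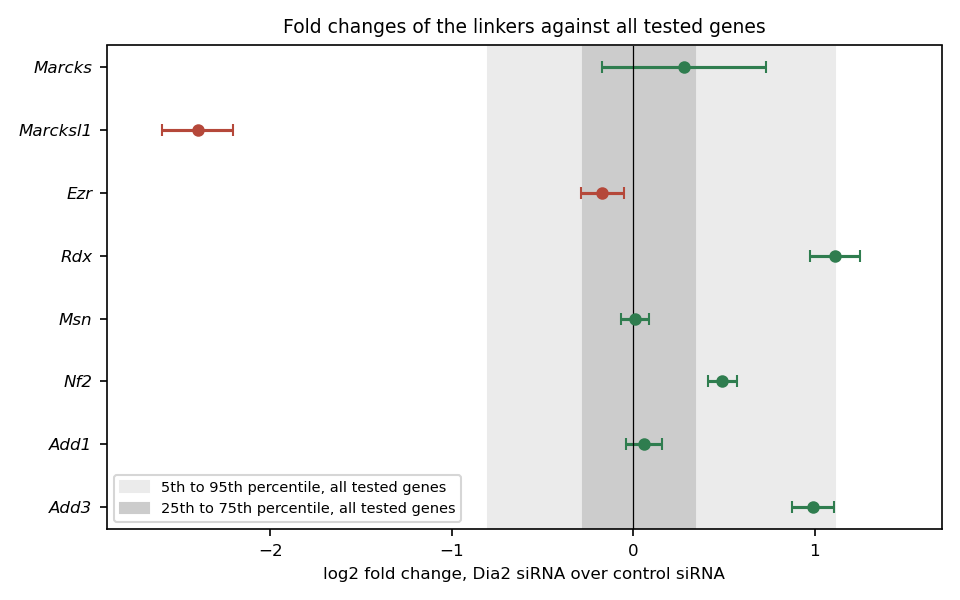
Log2 fold change of each linker gene, Dia2 siRNA over control siRNA (horizontal axis), with 95% intervals as bars; grey bands run from the 25th to 75th and from the 5th to 95th percentiles of all 14151 tested genes. Marcksl1, chosen for its fall, lies at -2.40, outside the wider band, which runs from -0.80 to 1.11. Rdx at 1.11 and Add3 at 0.99 lie at and near the upper edge of that band.

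Per length, the members spanned a wide range of levels. Moesin was the highest in both groups, at 297 ± 6.72 RPKM with Dia2 siRNA and 303 ± 18.1 RPKM with control siRNA (SD, n = 3 each), above 99.2% of detected genes. With Dia2 siRNA the order below it was Marcks (57.3 RPKM), Add1 (50.0), Rdx (41.0), Nf2 (13.9), Ezr (12.3), Add3 (10.5) and Marcksl1 (2.09), and no neighbours overlapped over the 3 libraries. With control siRNA it was Add1 (49.5 RPKM), Marcks (48.6), Rdx (19.4), Ezr (14.2), Marcksl1 (11.3), Nf2 (10.2) and Add3 (5.42). There Add1 overlapped with Marcks, Ezr with Marcksl1, and Marcksl1 with Nf2. Marcksl1 stood above 48.2% of detected genes with Dia2 siRNA and above 73.4% with control siRNA.

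The profile of Marcksl1 over the 6 libraries was nearest to those of Lmnb1 (lamin B1), Cldn15 (a claudin), Rbm47 (an RNA-binding protein), Mrap (a melanocortin receptor accessory protein) and Ptprn, by Euclidean distance of log2 CPM centred on each gene's mean among 10642 genes with a mean of at least 2 CPM. The distances were 0.229 to 0.332, against a median of 2.9. The log2 fold changes of the 5 were -2.34, -2.39, -2.52, -2.56 and -2.19. The likeness rests mainly on the size of the difference between the groups.

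Start sites of the members were compared in the RefSeq windows of GRCm38.p6, from 250 bases before to 50 after each start, which cover 7 of the 8 genes in 11 windows. Marcks had no window. The windows of Marcksl1 and of the pair that rose most, Rdx and Add3, are shown, with GGGCGG on either strand (the GC box) in capitals. For Rdx and Add3, which have several starts, the window with the most GC boxes is given.
Marcksl1, chr4:129513331-129513630, plus strand: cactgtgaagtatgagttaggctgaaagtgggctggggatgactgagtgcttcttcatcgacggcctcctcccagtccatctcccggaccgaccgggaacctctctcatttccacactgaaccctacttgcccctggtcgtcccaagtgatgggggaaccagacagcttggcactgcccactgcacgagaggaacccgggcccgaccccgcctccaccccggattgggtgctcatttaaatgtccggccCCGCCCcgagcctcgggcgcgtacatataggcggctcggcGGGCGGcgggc
Rdx, chr9:52047691-52047990, plus strand: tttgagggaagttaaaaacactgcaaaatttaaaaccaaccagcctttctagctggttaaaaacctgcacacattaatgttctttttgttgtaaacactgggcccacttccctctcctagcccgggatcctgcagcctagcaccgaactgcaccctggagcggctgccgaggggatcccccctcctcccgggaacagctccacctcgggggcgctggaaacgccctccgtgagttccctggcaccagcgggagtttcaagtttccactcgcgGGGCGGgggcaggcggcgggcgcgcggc
Add3, chr19:53142506-53142805, plus strand: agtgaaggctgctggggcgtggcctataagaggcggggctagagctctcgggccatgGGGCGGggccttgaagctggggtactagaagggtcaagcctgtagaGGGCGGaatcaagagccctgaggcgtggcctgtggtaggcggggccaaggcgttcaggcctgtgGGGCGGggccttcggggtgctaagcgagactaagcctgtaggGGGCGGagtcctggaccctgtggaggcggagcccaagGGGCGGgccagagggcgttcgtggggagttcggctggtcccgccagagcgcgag
GGGCGG occurred 2 times in the window of Marcksl1, 1 time in that of Rdx and 5 times in that of Add3. The other Rdx window held 0, and the other Add3 windows held 1 and 0. Of the 11 windows 8 held GGGCGG, against 35.7% of 32851 windows of all genes, tested or not. Several starts of a gene were counted separately, and the windows were not matched for base content or expression. Member windows holding GGGCGG were 45.0% to 69.0% G or C, and those without it 34.3% to 46.3%. The median over all windows was 52.7%. The difference from all windows was not tested. The CArG box bound by SRF, a factor that responds to actin assembly, was in none of the 11 and in 1.6% of all. GGAATG, the core bound by TEAD factors, was in 1 of the 11 (an Add3 window) and in 14.7% of all, TATAAA in 1 and 13.6%, and TGANTCA, bound by AP-1, in 1 (Ezr) and 7.8%. Both strands were searched, and a CArG box can itself contain TATAAA. A match is a string of letters and does not show binding.

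Genes that act on the linkers or resemble them were read from 6 lists. Of 55 listed genes 52 could be tested, and 15 rose, 24 fell and 13 did not pass. That is 75% called, against 59.2% of all tested genes, with a median log2 fold change of -0.12 against 0.01. These lists were also written with earlier results known and stand as a description.

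The genes listed for MARCKS control were mostly lower, 7 of 10 tested, with 1 higher, against 29.9% and 29.3% of all tested genes. Pip5k1b, an enzyme that makes PIP2, had 21.1, 22.8 and 23 CPM in Dia2 siRNA libraries, against 61.7, 60.8 and 60.3 CPM in control siRNA libraries, and fell 2.73-fold (edgeR adjusted p = 1.6e-09). Its relatives Pip5k1c and Pip5k1a fell by 0.26 and 0.16 on the log2 scale. Of the protein kinase C genes, Prkce fell 2.02-fold (11.7 ± 0.431 CPM with Dia2 siRNA and 23.8 ± 0.528 CPM with control siRNA, SD, n = 3 each), Prkcd 1.83-fold and Prkca 1.29-fold. Prkch fell by 0.95 on the log2 scale but lay under 1 CPM and lost its call in 4 of 15 alternatives. The calmodulin gene Calm2 rose (0.28, edgeR adjusted p = 0.00164), and Calm3 did not pass at -0.11. The relatives of MARCKS that also bind PIP2 both fell, Gap43 by 0.62 and Basp1 by 0.19 on the log2 scale.

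Genes that switch ERM proteins on or off were lower in 4 and higher in 2 of 7. Over all tested genes 29.9% were lower and 29.3% higher. The phosphatase subunit gene Ppp1cb fell 1.9-fold (133 ± 13.2 CPM with Dia2 siRNA and 253 ± 33.7 CPM with control siRNA, SD, n = 3 each; edgeR adjusted p = 2.86e-06). The kinase genes Map4k4, Rock2 and Stk10 (LOK) fell 1.58-, 1.41- and 1.26-fold. Rock1 and Ppp1r12a, a myosin phosphatase subunit, rose by log2 fold changes of 0.29 and 0.19, and Slk did not pass at 0.09.

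The ERM membrane partners are a list of membrane proteins and of the cytoplasmic scaffold genes Slc9a3r1 and Slc9a3r2 that join ERM proteins to them. Of 8 tested, 5 rose and 1 fell, against 29.3% and 29.9% of all tested genes. The 1 that fell was the scaffold gene Slc9a3r1, and of the 5 that rose, Spn and Slc9a3r2 lost the call in 7 and 6 of 16 alternatives. Pdpn (podoplanin) stood at 26.5, 27.8 and 26.9 CPM in Dia2 siRNA libraries, against 13.6, 14 and 14.5 CPM in control siRNA libraries, and rose 1.92-fold (edgeR adjusted p = 7.71e-08). The syndecan gene Sdc2 rose 1.65-fold and the hyaluronan receptor gene Cd44 1.35-fold. The scaffold gene Slc9a3r1 (NHERF1), which couples ERM proteins to channels and transporters, fell 1.75-fold to 32.4 ± 1.12 CPM with Dia2 siRNA, against 56.6 ± 4.31 CPM with control siRNA (SD, n = 3 each).

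In the adducin and spectrin skeleton 5 of 15 genes were higher and 6 lower, against 29.3% and 29.9% of all tested genes. Tmod1, a tropomodulin that caps the slow-growing filament ends, fell 2.72-fold at a low level (0.419 ± 0.0546 CPM with Dia2 siRNA and 1.15 ± 0.237 CPM with control siRNA, SD, n = 3 each). The protein 4.1 genes split, with Epb41l5 up by 0.52 and Epb41l2 by 0.22 on the log2 scale, and Epb41l1, Epb41 and Epb41l3 at -0.34, -0.33 and -0.31. The ankyrin gene Ank2 rose by 0.50, while the main spectrin genes moved little, with Sptbn1 not past the threshold at 0.08 and Sptan1 at -0.13 losing its call in 10 of 16 alternatives. Among merlin partners 2 of 10 were higher and 4 lower, 60% called against 59.2% of all tested genes. The angiomotin genes Amotl1 and Amotl2 fell by 0.42 and 0.33 on the log2 scale, the Hippo adaptor gene Sav1 fell by 0.38, and the FERM gene Frmd6 rose by 0.25.

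**Figure D4:**
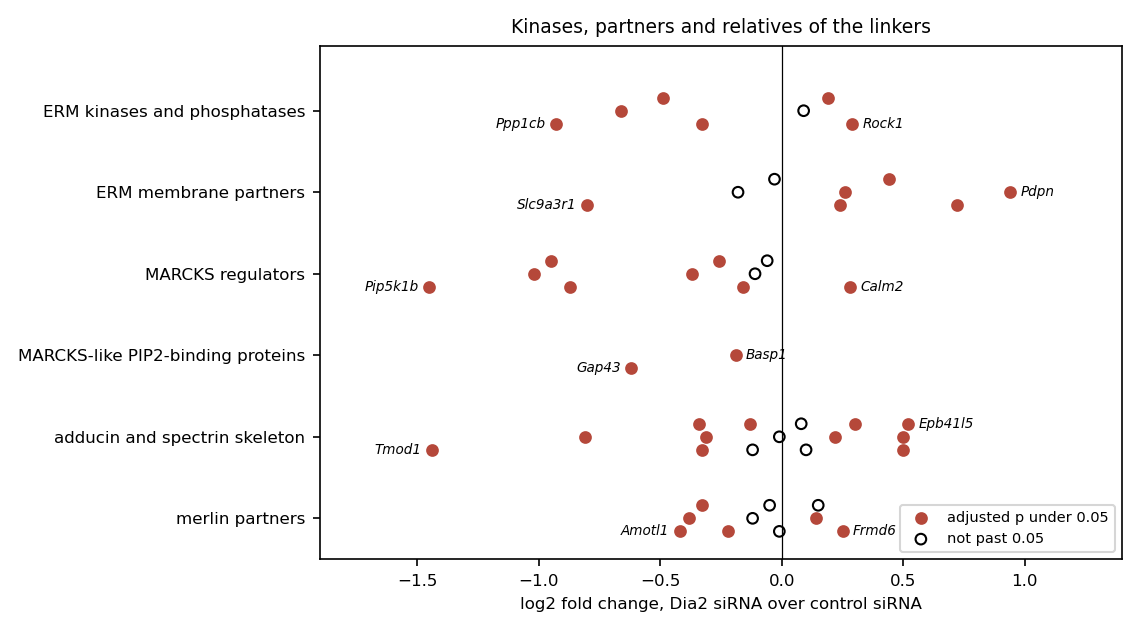
Log2 fold change, Dia2 siRNA over control siRNA (horizontal axis), of the 52 tested genes in the 6 partner lists; filled points have an adjusted p under 0.05 and open points do not, and the lowest and highest gene of each list are named. Genes of MARCKS control lie mostly left of 0, down to Pip5k1b at -1.45, and ERM membrane partners mostly right of it, up to Pdpn at 0.94.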

How the data were processed

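RNA sequencing of 6 libraries, 3 with Dia2 siRNA and 3 with control siRNA, was analysed; groups and replicate numbers come from the titles. Per the file headers, the authors deposited a gene count and an RPKM value per library, with a coding length and coordinates. The submitters' processing notes name bcl2fastq, TopHat2 2.0.6, HTSeq and the human builds hg19 and GRCh37, but the symbols are mouse and 99.3% of 20762 rows with a current symbol overlap that gene in GRCm38, so coordinates are given as GRCm38. The sources used here give no strand or multiple-match setting. The deposited RPKM equals count per length and per 1 library total, of which listed genes held 82.6% to 85.8%. The deposited length of each member exceeds its coding sequence and so includes untranslated bases.

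Counts were filtered with filterByExpr, which keeps a gene with at least 15 counts in all. It also requires, in at least 3 libraries, the CPM of 10 counts at the median library size. Tests were run in edgeR 4.0.16 (R 4.3.3) by the quasi-likelihood test with TMM factors, robust dispersions and Benjamini-Hochberg adjustment over 14151 genes at 0.05. The SE is the log2 fold change divided by the square root of F, and intervals are 95% normal intervals from it. The procedure was tested on simulated data. DESeq2 1.42.0 and limma 3.58.1 (voom) served as alternatives.

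Members and lists were chosen with earlier results of these data known. Named are all members and Diaph3, Add2, Gap43 and Basp1, up to 4 genes past the threshold per partner list with the largest change, and the 5 profiles nearest to Marcksl1; further listed genes were named after their values were seen, to describe their list, and some listed genes are not reported here by name. Sequences are from GENCODE M21 and RefSeq. Older symbols were matched for 2338 rows, those cut at a full stop (the protein 4.1 genes) by position.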

Additional observations from a re-analysis of the deposited data

How the results depend on the processing

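The directions and calls of Rdx, Nf2 and Add3 held under all 16 alternatives to the fit. Their log2 fold changes were 1.06 to 1.20, 0.46 to 0.52 and 0.94 to 1.02. Marcksl1 ranged from -2.49 to -2.30, a description only, since it was chosen for its fall in these same libraries. Msn (-0.01 to 0.05) and Add1 (0.02 to 0.09) passed the threshold under none. Ezr lost its call with upper-quartile factors (-0.13), no composition factor (-0.19), a mean CPM of at least 1 (-0.15) and the replicate block (-0.16), and ranged from -0.23 to -0.11 when 1 library was left out. Marcks ranged from 0.08 to 0.52 when 1 library was left out and passed only without control replicate 2. The cause was not tested. Over all alternatives the number of genes called ranged from 7343 (without Dia2 replicate 2) to 9193 (without control replicate 3), against 8380.

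With the replicate number as a block 7772 genes passed, 35 of them partner genes against 39. Deviations of libraries with the same number correlated at 0.00, 0.00 and -0.08, and no library correlated best with its own number, so the numbers were not taken to pair the libraries. Other than Ezr, no member changed its call under the block. Of the partner calls, Spn, Slc9a3r2, Prkch, Pip5k1a, Sptan1 and Wwc2 were lost in 4 to 10 alternatives each.

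Divided by GENCODE exonic length, a choice made after seeing the data, 4 of 8 members kept their place in the order with Dia2 siRNA, so neighbours in that order depend on the length used.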
